A study of Mus musculus with 25 samples.

Results

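The voltage-gated sodium and calcium channels and the potassium channels, with their auxiliary subunits, were examined as a gene family in the hypothalamus of mice whose mothers ate a hypercaloric diet. Members were chosen by symbol alone (Scn, Cacna, Cacnb, Cacng and Kcn genes) and by a mean normalized count of at least 10 in at least 1 of the 4 comparisons that the authors deposited. The tables list 24421 symbols, of which 131 matched and 117 reached that mean; these 117 are the members. By comparison 115, 114, 111 and 114 members passed (males weaned onto HCD, females weaned onto HCD, males weaned onto RD, females weaned onto RD), and 111 passed in all 4. Scn10a was just inside the limit, with a highest mean of 10.5, and Cacng6 just outside, at 8.28, in the authors' deposited tables. The 14 symbols left out were Scn4a, Cacna1f, Cacng6, Kcna7, Kcna10, Kcng3, Kcnv2, Kcne1, Kcnmb3, Kcnj1, Kcnj15, Kcnk15, Kcnk16 and Kcnk18. Among them are the skeletal muscle sodium channel (Scn4a), the retinal calcium channel (Cacna1f) and the renal potassium channel (Kcnj1), which was listed at 0. A brain sodium channel gene entered under the older symbol Scn2a1 falls outside the symbol rule and is not a member.

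Hypothalamus came from 25 wild-type C57BL/6J mice aged 3 months, in 8 groups, of which 1 held 4 mice and the others 3 each. Dams ate either HCD, a hypercaloric diet with 52% fat and high sucrose, or RD, regular chow, from 1 month before mating until their pups were weaned. Offspring of HCD dams were compared with offspring of RD dams in 4 settings: males and females weaned onto HCD, and males and females weaned onto RD, called males on HCD, females on HCD, males on RD and females on RD from here on. The labels do not name litters, so the spread behind each p-value is that between these mice and may be partly technical. Fold changes are HCD dams over RD dams. The labels give this order for mice weaned onto HCD; for those weaned onto RD it rests on the order in which the groups are named, and all signs of a table would turn together if it were the reverse. Values of single libraries were not analysed here, since library columns carry names that match no label, so each value is a mean or a fold change over the libraries of a comparison. Mean counts of Xist and Ddx3y in the authors' deposited tables fitted the labelled sexes.

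Voltage-gated sodium channels open on depolarization and carry the upstroke of the action potential; each has a large pore-forming alpha subunit and small beta subunits that tune its gating and its place in the membrane. Voltage-gated calcium channels, made of an alpha1 pore with beta and alpha2delta subunits, admit the calcium that triggers release of transmitter and hormone. Potassium channels repolarize the cell and set its resting potential, and in the hypothalamus they take part in glucose sensing and in the firing patterns of neuroendocrine neurons.

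Few channel genes passed the test in any comparison. In females on HCD, 3 members were called at an adjusted p under 0.05 by the authors' deposited table, where 1.52% of all genes were. Among the 3 were Scn3a and Scn1a, which fell in offspring of HCD dams. In females on RD, 2 members were called by the authors' deposited table, against 0.346% of all genes: Kcnj13 rose and Scn9a fell. In males on HCD the DESeq test of the authors' deposited table called 0 members (all genes 0.163%). At an unadjusted p under 0.05 there were 19 members, against 8.14% of all genes. In males on RD the DESeq test likewise called 0 members (all genes 0.0851%), and 7 had an unadjusted p under 0.05, against 4.3% of all genes. At that unadjusted level there were 14 members in females on HCD (all genes 13.3%) and 25 in females on RD (all genes 6.16%) by the authors' deposited tables. With the trend of the DESeq statistic in transcript length and GC content removed, 0 members were called in any of the 4 comparisons. Of all genes 0.105%, 0.281%, 0.0622% and 0.288% were then called in males on HCD, females on HCD, males on RD and females on RD, the order used for every list of 4 values below.

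Of the 5 members called, Kcnj13, Scn1a and Scn9a have a promoter entry in RefSeq (GRCm38.p6). These sequences are shown as the start regions of called members, of which Kcnj13 rose and Scn1a and Scn9a fell. Each runs from 250 bases before the start to 50 after it, 5′ to 3′ on the gene's own strand, and capitals mark matches on either strand to the core of the TATA box (TATAAA) or, as a separate motif, to the CCAAT box. The Kcnj13 promoter, at chr1:87394680-87394979 on the minus strand, holds 1 match to the TATA core and 2 to the CCAAT box. The Scn1a promoter, at chr2:66440788-66441087 on the minus strand, holds 1 match to the CCAAT box. The Scn9a promoter, at chr2:66634913-66635212 on the minus strand, holds none of the 5 motifs searched.
Kcnj13: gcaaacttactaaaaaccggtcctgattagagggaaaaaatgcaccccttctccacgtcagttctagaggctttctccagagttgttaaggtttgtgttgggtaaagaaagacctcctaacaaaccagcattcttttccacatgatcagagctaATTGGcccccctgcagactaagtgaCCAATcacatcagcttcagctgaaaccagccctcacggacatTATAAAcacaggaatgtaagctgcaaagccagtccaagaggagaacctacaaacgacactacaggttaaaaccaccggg
Scn1a: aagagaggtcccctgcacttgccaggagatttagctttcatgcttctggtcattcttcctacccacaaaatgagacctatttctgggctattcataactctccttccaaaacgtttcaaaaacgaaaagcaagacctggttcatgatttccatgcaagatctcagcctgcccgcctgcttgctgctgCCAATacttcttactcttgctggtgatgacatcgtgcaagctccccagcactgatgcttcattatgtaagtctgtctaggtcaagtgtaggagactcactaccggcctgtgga
Scn9a: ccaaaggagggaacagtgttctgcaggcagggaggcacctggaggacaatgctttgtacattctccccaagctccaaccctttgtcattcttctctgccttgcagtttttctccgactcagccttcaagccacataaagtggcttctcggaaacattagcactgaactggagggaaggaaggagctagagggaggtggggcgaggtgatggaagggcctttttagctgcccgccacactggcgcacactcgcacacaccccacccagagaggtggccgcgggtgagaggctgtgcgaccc

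Promoter entries were found for 84 of the 117 members, with 119 promoters in all. Their median GC content was 59.7%, against 52.7% in all 32851 promoters, and their median number of CpG was 10, against 7. The TATA core was present in 4.20% of member promoters and 13.6% of all promoters. The GC box (GGGCGG) was present in 47.9% of member promoters and 35.7% of all. The CCAAT box was present in 29.4% of member promoters and 37.4% of all. A stretch of the binding site of the neuronal repressor REST (CAGCACC) was present in 8.40% of member promoters and 7.14% of all. The cyclic AMP response element (TGACGTCA) was present in 0 of the 119 member promoters and 1.79% of all. Matches were counted on both strands, no motif contains another, and a match describes the letters of these windows only.

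Levels were set between genes per kilobase of the longest protein-coding transcript and per 1000000 of the summed mean counts of a table. The tables were normalized separately, and each range is over the 4 of them. Kcnab2, a cytoplasmic subunit of Shaker-type potassium channels, led the potassium channel genes at 122 (range 115 to 136), with the glial inward rectifier Kcnj10 at 76.3 (range 66.8 to 90.8). These ranges did not overlap.

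Among the sodium pores, Scn1a (level 12.6, range 9.74 to 17.8) and Scn8a (level 11.4, range 9.28 to 15.1), both found at axon initial segments, overlapped. The peripheral nerve channels Scn10a and Scn11a were at levels of 0.0303 and 0.0547. Calcium pores were led by the P/Q-type gene Cacna1a (level 8.60, range 6.18 to 12.3) and the T-type gene Cacna1g (level 9.25, range 7.66 to 11.3), whose ranges overlapped. The leading genes of the beta, gamma and alpha2delta classes stood higher: the level was 61.1 for Cacnb3, 34.9 for the TARP gene Cacng7 and 23.5 for Cacna2d3. Other genes of these classes did not, such as Cacng2 at 5.71 and Cacng4 at 4.06. Kcna1, a Shaker-type pore of axons, led the voltage-gated potassium pores at a level of 33.0 (range 25.7 to 42.8), with the Kv3-type gene Kcnc2 at 23.6 (range 16.8 to 30.0), and these ranges overlapped too. Kcnk1 led the two-pore domain genes at 49.6 (range 43.0 to 56.8). The sodium-activated channel Kcnt1 led its class at 11.5 (range 10.6 to 13.2).

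**Figure D1:**
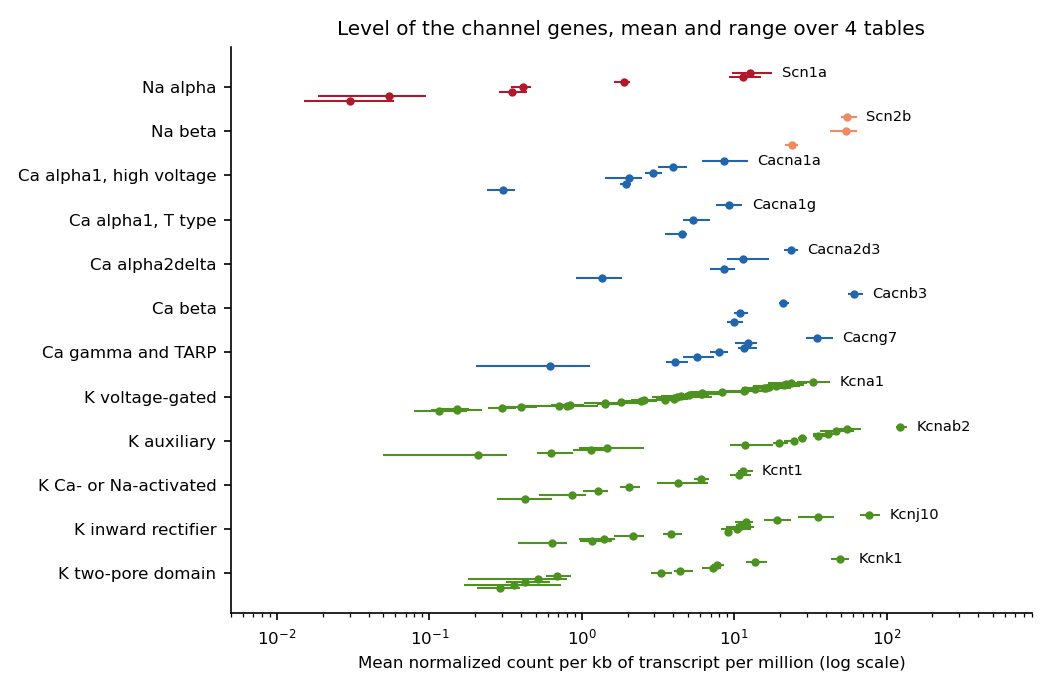
Mean level of 113 members by channel class, in normalized counts per kilobase of transcript and per 1000000 summed counts, on a log scale; points are means over the 4 tables and bars their range. Kcnab2 lies at the far right at 122, and the sodium alpha subunits spread from 0.0303 (Scn10a) to 12.6 (Scn1a).

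Member transcripts ran longer than those of other genes. The median was 4.06 kilobases for members, against 3.13 for all genes with a length in males on HCD. Class medians ran from 2.54 kilobases for the potassium auxiliary subunits and 2.78 for the calcium gamma and TARP genes to 8.42 for the sodium alpha subunits and 9.21 for the high-voltage calcium pores. In males on HCD the longest 10% of genes had a median log2 fold change of -0.38 with 8.31% positive, and the shortest 10% a median of 0.26 with 82.5% positive. Of the 115 members there, 30 lay in the longest and 2 in the shortest of these groups.

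Spearman's rho between transcript length and the Wald statistic of the authors' deposited table was -0.558 over 115 members in males on HCD, against -0.571 over 15289 genes. In females on HCD it was -0.423 over 114 members, against -0.464 over 14954 genes. In males on RD it was 0.0767 over 99 members, against 0.0966 over 12857 genes, and in females on RD -0.376 over 112 members, against -0.223 over 14935 genes. The points of a comparison share libraries, and GC content varied with the statistic too, with rho between -0.195 and 0.343 over all genes. Once a smooth trend in length and GC content, fitted over all genes, was taken off, rho with length over members was -0.0277, 0.0734, 0.0332 and -0.183. The part of length in each fold change was not tested beyond this removal, and class medians are given with and without the trend. Values with the trend removed cover only members with an adjusted p, which 12 members in males on RD and 2 in females on RD lack. In these comparisons the 2 medians of a class can therefore differ in their genes.

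**Figure D2:**
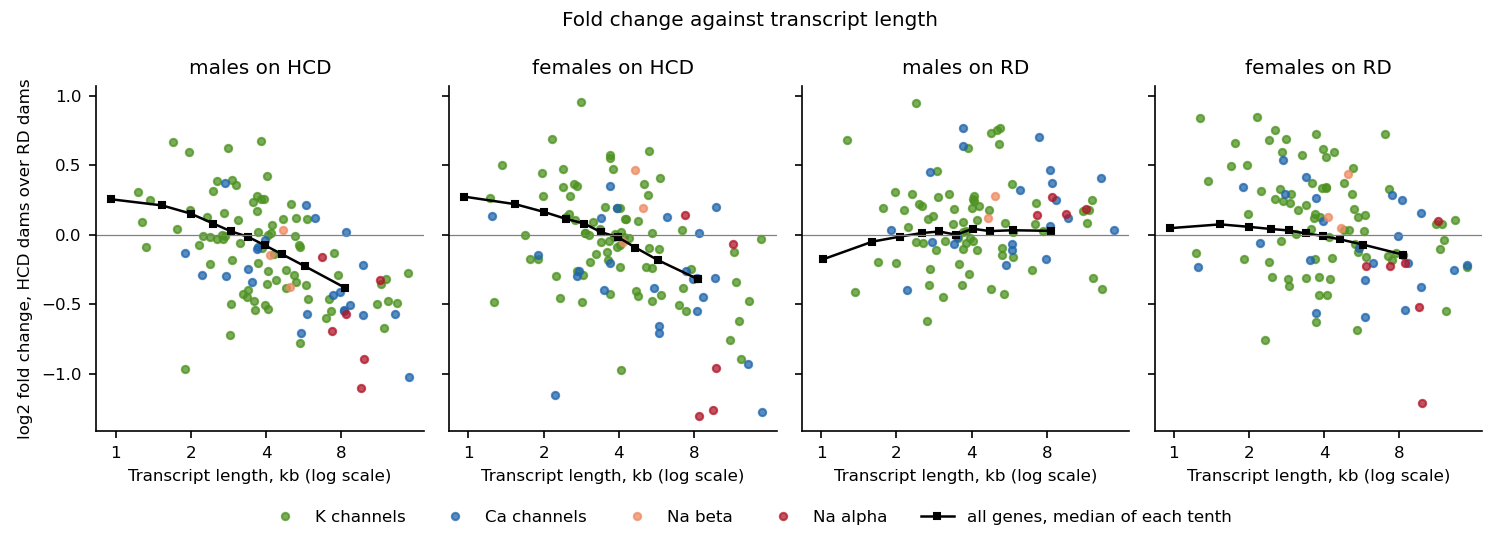
Log2 fold change (HCD dams over RD dams) of the members shown against transcript length in kilobases on a log scale, with 1 panel per comparison; black squares are the medians of all genes grouped by length. In males on HCD the black line ends at -0.38 for the longest genes, and 4 of the 6 sodium alpha subunits shown lie below that value.

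As deposited, the members' median fold change was below that of all genes in offspring weaned onto HCD. Among males on HCD, 31.3% of the 115 members were positive and their median log2 fold change was -0.18, against 48.9% and -0.01 for all genes. In females on HCD, 41.2% of the 114 members were positive with a median of -0.07, against 54.4% and 0.04 for all genes. In males on RD, 64.0% of the 111 members were positive with a median of 0.08, against 50.0% and 0.00 for all genes. The 111 include 12 members without an adjusted p, whereas all genes are those with one. That leaves out 1554 genes with a mean of 10 or more there. In females on RD, 54.4% of the 114 members were positive with a median of 0.04, against 50.9% and 0.01 for all genes. With the trend removed, the members' medians were -0.08, -0.01, 0.11 and 0.10, over the 115, 114, 99 and 112 members with an adjusted p. Of these 40.0%, 47.4%, 62.6% and 59.8% were positive, against 48.5%, 55.0%, 50.0% and 50.9% of all genes. The medians of all genes were then -0.01, 0.04, 0.00 and 0.01. With a trend in exon-union length alone removed, 40.9% were positive in males on HCD and 55.3% in females on HCD. The members' median in females on HCD was then 0.04, against 0.04 for all genes, so the difference was no longer there. These figures come from the authors' deposited tables and describe the family without a test.

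**Figure D3:**
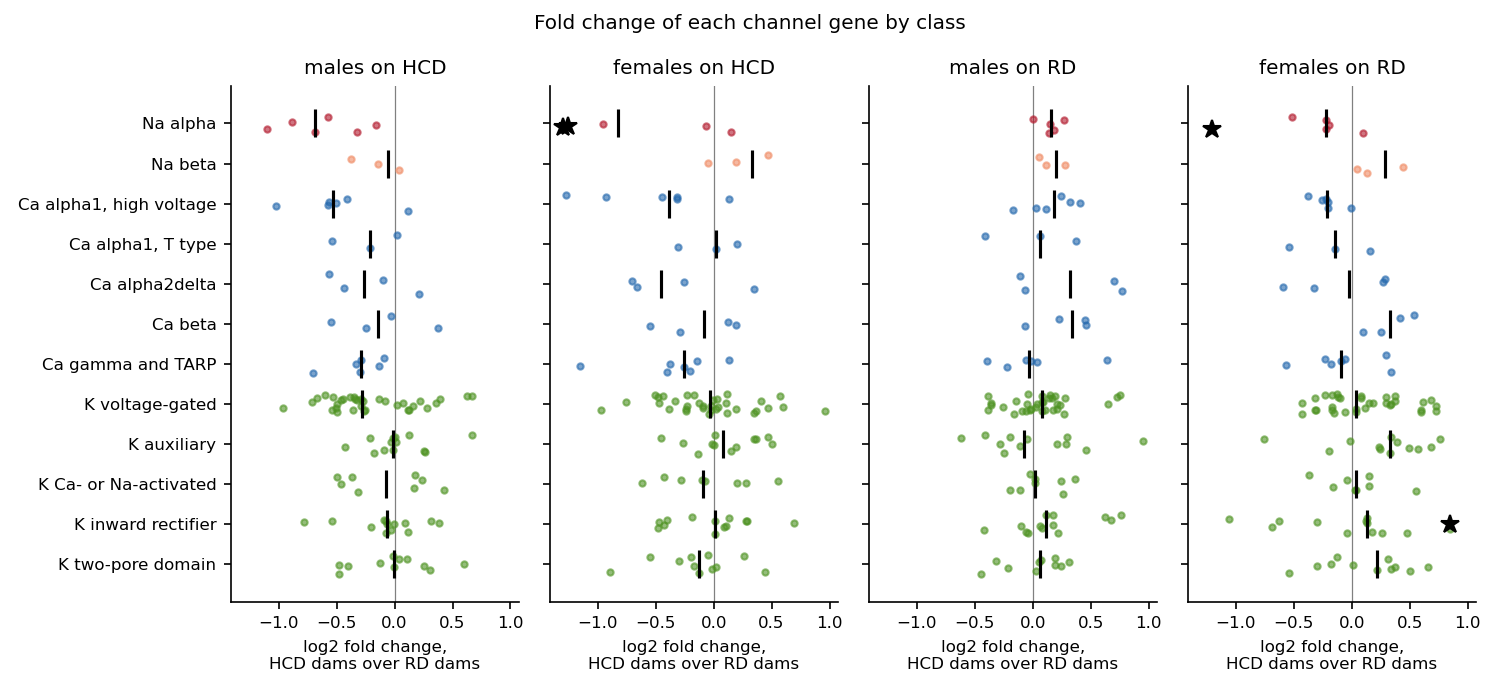
Log2 fold change of 113 members (HCD dams over RD dams) by channel class in the 4 comparisons; vertical bars are medians of the whole class and black stars 4 calls at an adjusted p under 0.05. The 6 sodium alpha subunits shown for males on HCD all lie left of 0, and the class has a median of -0.69.

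The sodium channel alpha subunits, the pores themselves, had the lowest class medians in offspring weaned onto HCD in the values as deposited. Once the trend was removed, the gamma and TARP class was lower in males on HCD (-0.40). This order depends on the trend: with that in exon-union length alone removed, sodium alpha subunits were at -0.44 and the gamma and TARP class at -0.34. Of the sodium alpha subunits 0 of 7 were positive in males on HCD. Their median log2 fold change was -0.69, or -0.32 with the trend removed. In females on HCD 1 of 6 was positive, with a median of -0.82, or -0.50 with the trend removed. In males on RD 6 of 6 were positive, with a median of 0.16 (0.20 with the trend removed). In females on RD 1 of 7 was positive, with a median of -0.22 (-0.14 with the trend removed). Calls numbered 0, 2, 0 and 1 by the authors' deposited tables, where 5, 3, 0 and 1 of the class had an unadjusted p under 0.05 in the DESeq test. Of all genes 0.163%, 1.52%, 0.0851% and 0.346% were called, and 8.14%, 13.3%, 4.3% and 6.16% were at that unadjusted level.

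Scn3a, a channel best known from the embryonic and early postnatal brain, fell in females on HCD. Its log2 fold change there was -1.26 ± 0.35 (SE), 2.39-fold lower in offspring of HCD dams, with an adjusted p of 0.0365 by the authors' deposited table. The value in males on HCD, short of the threshold, was -1.10 ± 0.30 (adjusted p = 0.0956) by the authors' deposited table. The authors' deposited tables gave 0.15 ± 0.39 in males on RD and -0.52 ± 0.29 in females on RD. Removal of the trend left Scn3a at -0.86 in females on HCD (adjusted p = 0.429).

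Scn1a, a channel of fast-spiking interneurons, also fell in females on HCD. Its log2 fold change there was -1.30 ± 0.37, 2.46-fold lower, at a mean normalized count of 1879 and with an adjusted p of 0.0390 by the authors' deposited table. It was at -0.57 ± 0.27 in males on HCD, 0.27 ± 0.43 in males on RD and -0.20 ± 0.26 in females on RD by the authors' deposited tables, without a call. Removal of the trend left Scn1a at -0.94 in females on HCD (adjusted p = 0.415).

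Scn9a, a channel of sensory and neurosecretory neurons, fell in females on RD. Its log2 fold change there was -1.20 ± 0.30, 2.30-fold lower, at a mean normalized count of 97.4 and with an adjusted p of 0.0233 by the authors' deposited table. It was at -0.89 ± 0.31 in males on HCD (unadjusted p = 0.00407) and -0.96 ± 0.45 in females on HCD (unadjusted p = 0.0317) by the authors' deposited tables, neither of them called. In males on RD it was at 0.00 ± 0.32 and carries no p in the authors' deposited table. Removal of the trend left Scn9a at -1.07 in females on RD (adjusted p = 0.0764).

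Markers of hypothalamic neurons, a list of 9 genes for neuropeptides and transcription factors, were mostly below 0 as well. Oxt and Pmch, for oxytocin and melanin-concentrating hormone, had mean normalized counts of 453 and 3235 in males on HCD and of 741 and 2848 in females on HCD by the authors' deposited tables. Sim1, a transcription factor of paraventricular neurons, had 26.5 and 5.09, the last below the limit of 10. Among males on HCD 0 of 9 of the list were positive, with a median log2 fold change of -1.37. Of these 5 were called as lower by the authors' deposited table, where 0.163% of all genes were called. Females on HCD had 0 of 7 positive with a median of -0.43, males on RD 2 of 7 with a median of -0.17, and females on RD 0 of 9 with a median of -0.30. None of these was called by the authors' deposited tables, though only 4 of the 7 in males on RD had an adjusted p. Markers of some neighbouring tissues also differed in males on HCD by the authors' deposited table. Of the striatum markers 0 of 8 were positive (median -0.66). The DESeq test called none of them, and 5 had an unadjusted p under 0.05, against 8.14% of all genes. Meninges markers had 0 of 6 positive (median -0.58, 1 called) and habenula markers 5 of 5 (median 0.75, 1 called). Thalamus markers, and those of cortex and hippocampus, had 4 of 8 positive each, with medians of 0.03 and -0.03. In females on HCD the striatum, meninges and habenula lists had 7, 1 and 2 positive, with medians of 0.16, -0.39 and -0.19. Of 7 pan-neuronal markers 4, 5, 5 and 4 were positive, with medians of 0.08, 0.19, 0.30 and 0.22. The part of these markers in the sodium channel values was not tested.

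Scn3a, Scn1a and Scn9a lie on the minus strand of chromosome 2 in mm10: the first at 65457118 to 65567627, the second at 66270778 to 66440840 and the third at 66480080 to 66634962. Scn7a, a sodium channel relative of the same stretch at 66673425 to 66784914, was chosen for its position after its values were seen. Its log2 fold changes were -0.69 ± 0.31, 0.15 ± 0.39, 0.14 ± 0.33 and -0.22 ± 0.29 by the authors' deposited tables, so the value in females on HCD did not share the sign of its neighbours. Scn8a, at a level like that of Scn1a and with the longest transcript of the class (11.4 kilobases), was chosen after its values were seen. It was at -0.32 ± 0.26, -0.06 ± 0.26, 0.19 ± 0.44 and 0.10 ± 0.25 by the authors' deposited tables, with unadjusted p of 0.220, 0.809, 0.675 and 0.686.

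The sodium channel beta subunits, small single-pass proteins, had medians above 0 in 3 comparisons. Their median log2 fold change was -0.06, 0.33, 0.20 and 0.29, or 0.06, 0.36, 0.31 and 0.33 with the trend removed. Scn2b, Scn3b and Scn4b lay between -0.38 and 0.47 on the log2 scale, with no call, by the authors' deposited tables. Both ends were looked up after the values were seen: Scn4b in males on HCD (-0.38 ± 0.30) and Scn2b in females on HCD (0.47 ± 0.32) by the authors' deposited tables.

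**Figure D4:**
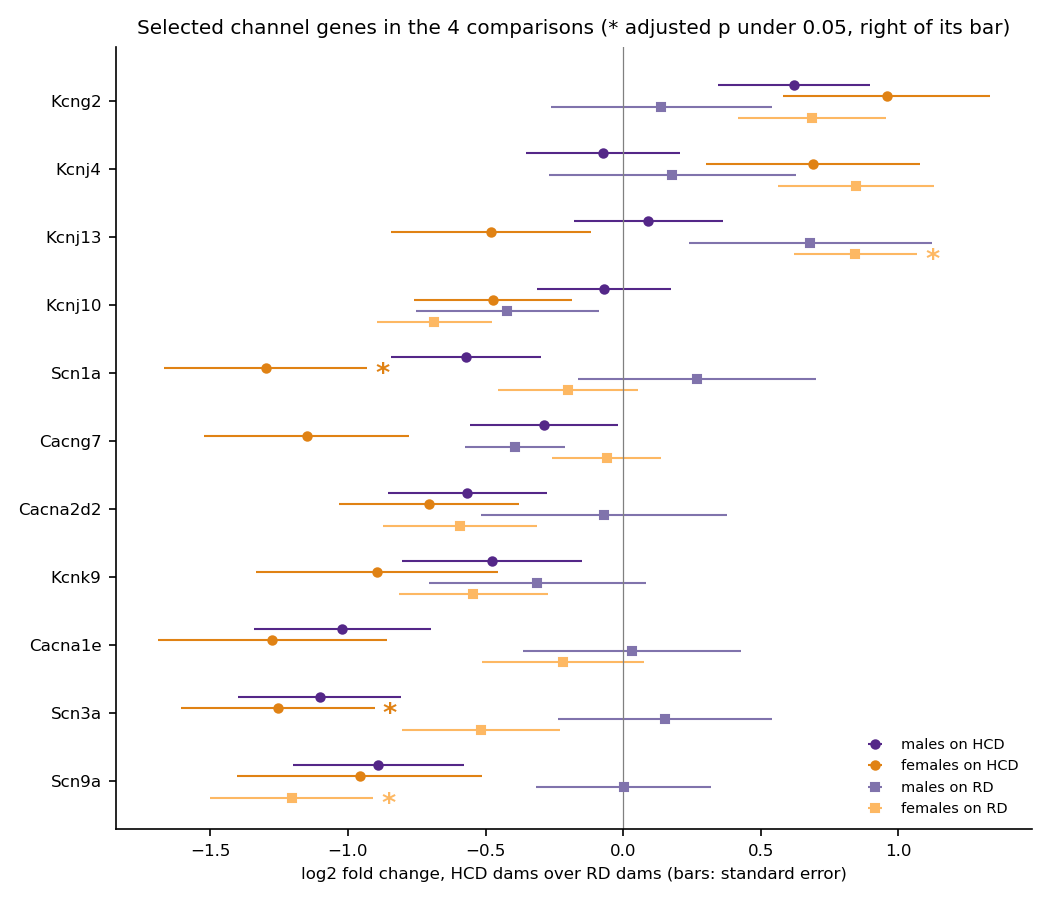
Log2 fold change and standard error of 11 members in the 4 comparisons (HCD dams over RD dams), from the authors' deposited tables; stars mark an adjusted p under 0.05. Kcng2 lies right of 0 in all 4, between 0.14 and 0.96, while Scn3a, Scn1a and Cacna1e lie left of 0 in both sexes on HCD and right of 0 in males on RD.

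High-voltage calcium channel pores had a median log2 fold change of -0.53 in males on HCD (1 of 6 positive), -0.38 in females on HCD (1 of 6), 0.18 in males on RD (5 of 6) and -0.21 in females on RD (0 of 6). With the trend removed the medians were -0.21, -0.09, 0.23 and -0.04. None was called by the DESeq test of the authors' deposited tables, where 3, 2, 0 and 0 had an unadjusted p under 0.05. All genes had 8.14%, 13.3%, 4.3% and 6.16% at that unadjusted level. Cacna1e, the R-type pore, has the longest transcript of all members at 14.9 kilobases and the most negative values of its class in offspring weaned onto HCD. It was at -1.02 ± 0.32 in males on HCD (adjusted p = 0.266) and -1.27 ± 0.42 in females on HCD (adjusted p = 0.0852) by the authors' deposited tables. In males and females on RD it was at 0.03 ± 0.40 and -0.22 ± 0.29 by the authors' deposited tables. Cacna1c, an L-type pore of neurons, muscle and endocrine cells, was at -0.93 ± 0.33 in females on HCD (adjusted p = 0.131) by the authors' deposited table. Without the trend, Cacna1e was at -0.75 and Cacna1c at -0.45 in that comparison, with adjusted p of 0.768 and 0.809. Cacna1a, the most abundant pore of the class, had -0.41 ± 0.28, -0.32 ± 0.31, -0.17 ± 0.34 and -0.01 ± 0.20 by the authors' deposited tables.

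T-type pores, which drive rebound bursts, had medians of -0.21, 0.02, 0.06 and -0.14, or 0.03, 0.26, 0.29 and -0.07 with the trend removed. In males on RD the 0.06 is a median of 3 genes and the 0.29 of 2, since 1 has no adjusted p. Removal of the trend took Cacna1g there from 0.38 to 0.44. Cacna1g was at -0.54 ± 0.24 in females on RD (unadjusted p = 0.0258, adjusted p = 0.677) by the authors' deposited table. In the other comparisons it was at 0.02 ± 0.25, 0.02 ± 0.24 and 0.38 ± 0.44 by the authors' deposited tables. Cacna1g is strongly expressed in the thalamus, which adjoins the hypothalamus. Of 8 thalamus markers 0 were positive in females on RD, with a median of -0.42, and 8 in males on RD, with a median of 0.41. Their part in the Cacna1g values was not tested.

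Calcium channel alpha2delta subunits, extracellular proteins that raise channel density at the membrane, had medians of -0.27, -0.46, 0.32 and -0.03, or -0.06, -0.18, 0.26 and 0.03 with the trend removed. Cacna2d2 was negative throughout, at -0.57 ± 0.29, -0.71 ± 0.33, -0.07 ± 0.45 and -0.59 ± 0.28, with adjusted p of 0.614, 0.304, 1.00 and 0.723, by the authors' deposited tables. Cacna2d3, the most abundant of the class, was at -0.10 ± 0.28, 0.35 ± 0.31, 0.77 ± 0.40 and 0.27 ± 0.22 by the authors' deposited tables.

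The cytoplasmic calcium channel beta subunits, which carry the pore to the membrane, had medians of -0.14, -0.09, 0.34 and 0.33, and 4 of 4 were positive in females on RD. With the trend removed the medians were -0.04, -0.07, 0.32 and 0.36. Cacnb4 was at -0.55 ± 0.27, -0.55 ± 0.24, 0.46 ± 0.22 and 0.25 ± 0.24, with unadjusted p of 0.0445, 0.0229, 0.0364 and 0.291, by the authors' deposited tables. None of these values was called, and with the signs of the RD tables turned all 4 would be negative. Cacnb3, the most abundant of the class, was at 0.37 ± 0.26, -0.29 ± 0.23, 0.46 ± 0.23 and 0.53 ± 0.21 by the authors' deposited tables.

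The gamma class holds the TARPs that carry AMPA receptors to synapses, and its transcripts are short. Its medians were negative in each comparison, at -0.29 (0 of 6 positive), -0.26 (1 of 7), -0.04 (2 of 6) and -0.09 (2 of 7). Removal of the trend gave -0.40, -0.33, -0.01 and -0.13. Cacng7 had the lowest value of the class, -1.15 ± 0.37 in females on HCD (2.22-fold lower, adjusted p = 0.0816) by the authors' deposited table, short of the threshold. With the trend removed it was at -1.35 (adjusted p = 0.0593). Elsewhere it was at -0.29 ± 0.27 in males on HCD, -0.39 ± 0.18 in males on RD (unadjusted p = 0.0296) and -0.06 ± 0.20 in females on RD by the authors' deposited tables. Cacng2, the stargazin gene, chosen after its values were seen, was at -0.71 ± 0.26 in males on HCD (unadjusted p = 0.00612, adjusted p = 0.422) by the authors' deposited table.

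Among the 36 voltage-gated potassium pores the DESeq test of the authors' deposited tables called 0, and 5, 3, 1 and 7 had an unadjusted p under 0.05. The shares of all genes at that unadjusted level were 8.14%, 13.3%, 4.3% and 6.16%. Their medians were -0.28, -0.03, 0.08 and 0.04, with 11 of 36, 14 of 36, 21 of 35 and 19 of 35 positive. With the trend removed the medians were -0.09, 0.03, 0.10 and 0.09. Kcng2, a silent subunit that modifies Kv2 channels, was positive throughout, at 0.62 ± 0.28, 0.96 ± 0.38, 0.14 ± 0.40 and 0.69 ± 0.27 by the authors' deposited tables. Its unadjusted p was 0.0241, 0.0111, 0.730 and 0.0106, and its lowest adjusted p was 0.185, in females on HCD, by the authors' deposited tables. Kcng4, another silent subunit, was at 0.67 ± 0.29, 0.47 ± 0.36, -0.06 ± 0.45 and -0.43 ± 0.22 by the authors' deposited tables.

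Kcna3, a Shaker-type channel of neurons and immune cells, was at -0.96 ± 0.33 in males on HCD (adjusted p = 0.356), at a mean normalized count of 50.9, by the authors' deposited table. Its transcript is short, and with the trend removed it was at -1.21 (adjusted p = 0.0902). Kcnq5, a pore of the KCNQ family, was at 0.73 ± 0.22 in females on RD (adjusted p = 0.133, or 0.0603 with the trend removed) and -0.50 ± 0.34 in females on HCD by the authors' deposited tables. The Kv3-type gene Kcnc2 and the Shaker-type gene Kcna6 were among the 5 most positive members of females on HCD. Kcnc2 was at 0.36 ± 0.20 (adjusted p = 0.419) and Kcna6 at 0.41 ± 0.23 (adjusted p = 0.431) by the authors' deposited table. Kcna1 was at -0.35 ± 0.27, 0.20 ± 0.34, 0.19 ± 0.43 and 0.38 ± 0.25 by the authors' deposited tables, the last with no p.

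Potassium auxiliary subunits had medians of -0.01, 0.08, -0.08 and 0.33, or -0.06, 0.08, -0.08 and 0.29 with the trend removed, and 9 of 12 were positive in females on RD. Kcnab3, a beta subunit of Shaker-type channels, was at 0.76 ± 0.21 in females on RD (adjusted p = 0.0843) by the authors' deposited table, short of the threshold. In the other comparisons it was at -0.03 ± 0.26, 0.15 ± 0.27 and 0.21 ± 0.36 by the authors' deposited tables. Kcnip1 and Kcnip4 of the KChIP family, which bind Kv4 channels, were positive in males on RD and negative in females on RD. The other members of the family had the opposite signs in both. Kcnip1 was at 0.29 ± 0.45 in males on RD and -0.76 ± 0.25 in females on RD (adjusted p = 0.193) by the authors' deposited tables. Kcnip4 was at 0.95 ± 0.33 in males on RD (adjusted p = 0.459) and -0.20 ± 0.26 in females on RD by the authors' deposited tables. Kcne2, abundant in choroid plexus, was at 0.67 ± 0.26 in males on HCD (adjusted p = 0.487) by the authors' deposited table. Of the other 6 choroid plexus genes listed, apart from the channel Kcnj13, 3 were positive in that comparison, with a median of 0.17, and their part in the Kcne2 value was not tested. Kcne4 (-0.62 ± 0.45) and Kcnab2 (-0.28 ± 0.22) were among the 5 most negative members of males on RD, without a call, by the authors' deposited table.

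The calcium- and sodium-activated potassium pores had medians of -0.07, -0.09, 0.02 and 0.03, or 0.05, -0.01, 0.05 and 0.04 with the trend removed. None was called by the DESeq test of the authors' deposited tables, where 0, 1, 0 and 1 had an unadjusted p under 0.05. The all-gene shares at that unadjusted level were 8.14%, 13.3%, 4.3% and 6.16%. Kcnt1 was at -0.46 ± 0.27, -0.43 ± 0.24, 0.02 ± 0.38 and -0.16 ± 0.22 by the authors' deposited tables.

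The inward rectifiers had medians of -0.06, 0.02, 0.11 and 0.13, or -0.08, -0.01, 0.17 and 0.15 with the trend removed. Among them Kcnj13, a channel of ion-transporting epithelia, rose in females on RD. Its log2 fold change there was 0.84 ± 0.22, 1.79-fold higher in offspring of HCD dams, at a mean normalized count of 308 and with an adjusted p of 0.0479 by the authors' deposited table. Once the trend was removed, its value was 0.81 (adjusted p = 0.0708). It was at 0.09 ± 0.27 in males on HCD, -0.48 ± 0.36 in females on HCD and 0.68 ± 0.44 in males on RD by the authors' deposited tables.

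Kcnj13 is itself a choroid plexus marker. Of the other 6 genes of that list 5 were positive in females on RD, with a median of 0.65 and values between -0.08 and 1.01, beside medians of 0.17, -0.12 and 0.03 in the other comparisons. The list's Kl, which encodes the hormone Klotho, was called at 1.01 ± 0.23 (adjusted p = 0.00867) in females on RD by the authors' deposited table. Ttr, the most abundant gene of the list, was at 0.84 ± 0.23 (adjusted p = 0.0642) by the authors' deposited table. The part of choroid plexus in the Kcnj13 value was not tested, and in bulk tissue more cells of a type and more RNA per cell cannot be told apart. Kcnj13 exons share 623 of 1270 bases (49.1%) with the opposite-strand gene Gigyf2, and how counting treated strand is not stated by the submitters' notes used here. Gigyf2 was at -0.14 ± 0.23 in females on RD by the authors' deposited table.

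Kcnj10, through which astrocytes clear potassium from around neurons, and Kcnj16, which assembles with it, were negative in every comparison. Kcnj10 was at -0.07 ± 0.24, -0.47 ± 0.29, -0.42 ± 0.33 and -0.69 ± 0.21, with an adjusted p of 0.131 in females on RD, by the authors' deposited tables. Kcnj16 was at -0.63 ± 0.22 in females on RD (adjusted p = 0.328) by the authors' deposited table. Of 7 astrocyte markers 1 was positive in females on RD, with a median of -0.20, and Agt was called at -0.79 ± 0.21 (adjusted p = 0.0460) by the authors' deposited table. Their part in the Kcnj10 and Kcnj16 values was not tested.

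Kcnj4, an inward rectifier of forebrain neurons, was at 0.69 ± 0.39 in females on HCD (adjusted p = 0.446) and 0.85 ± 0.28 in females on RD (adjusted p = 0.244) by the authors' deposited tables. Of 8 markers of cortex and hippocampus 5 were positive in females on HCD, with a median of 0.09, and 8 in females on RD, with a median of 0.77. Their part in the Kcnj4 values was not tested. Kcnj3, a G-protein-gated channel, was at 0.76 ± 0.35 in males on RD (unadjusted p = 0.0301) by the authors' deposited table. Kcnj11, the ATP-sensitive pore that couples glucose to firing, was chosen after its values were seen. It was at -0.06 ± 0.26, 0.09 ± 0.34, -0.04 ± 0.41 and 0.18 ± 0.22 by the authors' deposited tables, with unadjusted p of 0.814, 0.791, 0.915 and 0.415. Kcnj5, at -1.06 ± 0.29 in females on RD, has no p in the authors' deposited table, as was the case for 2 members in that comparison and 12 in males on RD.

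The two-pore domain genes, which carry background leak current, had medians of 0.00, -0.13, 0.07 and 0.22, or 0.01, -0.05, 0.08 and 0.21 with the trend removed. The DESeq test of the authors' deposited tables called 0 of them, and 1, 1, 0 and 2 had an unadjusted p under 0.05. At that unadjusted level were 8.14%, 13.3%, 4.3% and 6.16% of all genes. Kcnk9, a leak pore sensitive to acid, was negative throughout, at -0.48 ± 0.33, -0.89 ± 0.44, -0.31 ± 0.39 and -0.55 ± 0.27 by the authors' deposited tables. Its unadjusted p was 0.0418 in females on HCD and 0.0438 in females on RD by the authors' deposited tables. Its transcript of 12.3 kilobases is the longest of its class, and with the trend removed it was at -0.07, -0.43, -0.27 and -0.34. Kcnk12, a silent member of the class, was at 0.60 ± 0.28, 0.44 ± 0.42, 0.31 ± 0.34 and 0.50 ± 0.30 by the authors' deposited tables. Kcnk1 was at -0.01 ± 0.25, -0.30 ± 0.23, 0.06 ± 0.32 and 0.31 ± 0.18 by the authors' deposited tables.

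**Figure D5:**
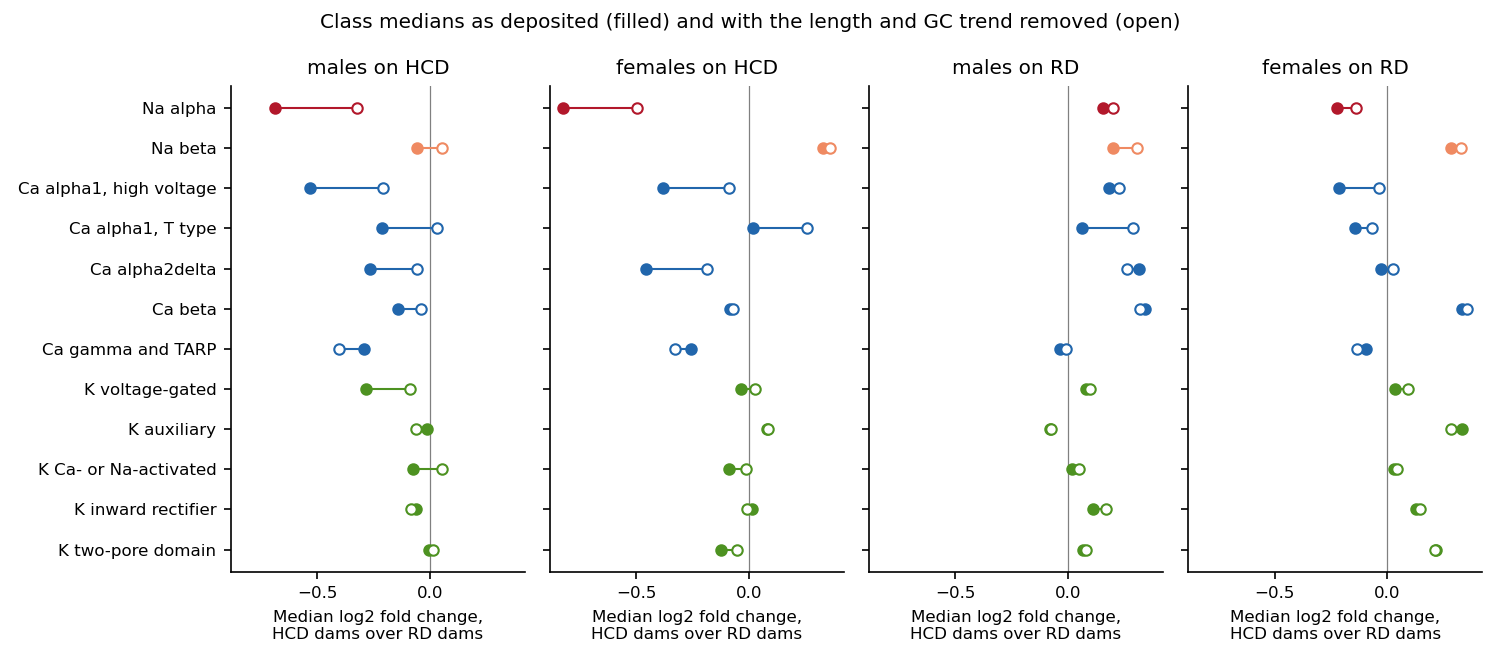
Median log2 fold change (HCD dams over RD dams) of each channel class in the 4 comparisons, as deposited (filled) and with the trend in transcript length and GC content removed (open). Open points cover only members with an adjusted p. In males on HCD the sodium alpha median is -0.69 as deposited and -0.32 with the trend removed, and the high-voltage calcium median -0.53 and -0.21.

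The 4 comparisons share no samples, so their fold changes could be subtracted and tested gene by gene. A normal test of the difference called 0 members at an adjusted p under 0.05 in each of 4 pairs, over 97 to 113 members a pair. Of all genes 0.00775% differed between males on HCD and males on RD, 0.00685% between females on HCD and females on RD, 0% between males and females on HCD, and 0.00791% between males and females on RD. At an unadjusted p under 0.05 the members numbered 6, 10, 0 and 4 in these pairs, against 3.84%, 5%, 0.642% and 3.05% of all genes. The 0.642% lies far below the 5% that this level would give without any difference. The normal test was thus conservative between males and females on HCD, whose fold changes correlated at 0.667 over 12604 genes. A lack of calls therefore does not show that fold changes were equal. The smallest p in females was that of Kcnj13, at -0.48 on HCD against 0.84 on RD by the authors' deposited tables, a difference of -1.32 ± 0.43 (adjusted p = 0.583). Next came Kcnq5, at -0.50 on HCD against 0.73 on RD by the authors' deposited tables, a difference of -1.23 ± 0.40 (adjusted p = 0.627). In males the smallest p was that of Cacnb4, at -0.55 on HCD against 0.46 on RD by the authors' deposited tables, a difference of -1.01 ± 0.35 (adjusted p = 0.978). With the signs of the RD tables turned, 4 members differed between females on HCD and females on RD, among them Scn9a, Scn3a and Kcng2, against 1.27% of all genes, so this count depends on the reading of the sign.

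Of 97 members with a test in every comparison, 8 (8.25%) were positive in all 4, among them Scn2b, Kcnc2, Kcng2, Kcnh3, Kcns3, Kcnk12 and Kcnn2. Another 10 (10.3%) were negative in all 4, among them Cacna1a, Cacna2d2, Cacng2, Cacng4, Cacng7, Kcnj10, Kcnj16, Kcnk9 and Kcnn3. Among 12604 genes tested in all 4, 12.7% were positive and 11.9% negative throughout, and the members' shares were not tested against these. These shares depend on the reading of the sign. With the signs of the RD tables turned, 2.06% of members were positive and 12.4% negative throughout, against 6.71% and 7.06% of all genes. Every statement here that a gene had 1 sign throughout is for the signs as read. Kcng2, Cacng7, Cacna2d2 and Kcnk9 were among the members with 1 sign throughout and an unadjusted p under 0.05 in at least 2 comparisons.

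Genes that work with these channels but fall outside the symbol rule were read beside them: 33 sodium and calcium pumps, calcium release channels, HCN and leak channels, ATP-sensitive channel subunits and scaffolds of the axon initial segment. Of these 8, 11, 19 and 13 were positive, with medians of -0.31, -0.12, 0.06 and -0.06, or -0.04, 0.05, 0.06 and -0.01 with the trend removed. In each comparison 0 were called by the DESeq test of the authors' deposited tables, and 6, 11, 1 and 3 had an unadjusted p under 0.05. Of all genes 8.14%, 13.3%, 4.3% and 6.16% were at that unadjusted level. Ank3, whose product anchors sodium channels at the initial segment, was at -0.52 ± 0.26 in males on HCD and -0.75 ± 0.26 in females on HCD (adjusted p = 0.107) by the authors' deposited tables. It was chosen after its values were seen.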

How the data were processed

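Polyadenylated RNA of hypothalamus was sequenced with a stranded kit, per the labels' protocols. DESeq (version not listed) and the build mm10 appear in the submitters' processing notes, and no source used here states the aligner, counter, annotation or use of strand. Out of 12 deposited files, the 4 that hold the authors' comparison results were used. Per the file headers, the authors' tables give each gene a mean normalized count, which is a signal at or above 0, and a log2 fold change with its standard error. The deposited tables also give a Wald score, a p-value and an adjusted p-value. The other 8 files hold 48 library columns whose names match no label. They were not used, so the planned edgeR and DESeq2 fits, depth per library, leaving out libraries and replicate blocks were not run. For males on RD these files have 6 library columns against 7 labelled samples. Comparisons are named as in the account of the results, with the maternal diet compared within each.

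Standard errors were small at the lowest means: for Scn10a, at a mean of 2.31, it was 0.20 in females on HCD by the authors' deposited table. The largest standard errors in the 4 comparisons were 0.33, 0.45, 0.45 and 0.30. Scn9a in females on RD, at a mean of 97.4, also had 0.30. This can mean fold changes shrunken toward 0, which is not stated, and would understate changes, not of low genes alone.

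Calls are adjusted p-values under 0.05. Transcript length and GC content came from the longest protein-coding transcript in GENCODE vM21 (GRCm38, the same assembly as mm10), for 24069 of 24421 symbols and all 117 members. Trends were removed from statistic and fold change with splines of 5 knots, and p-values were readjusted over all genes. The difference between 2 comparisons was set against its own standard error, the root of the sum of both squared errors, in a two-sided normal test, and Benjamini-Hochberg adjusted across the genes tested. Both steps were run on simulated data with independent normal errors, a linear trend in length and no separate trend in GC content. The deposited fold changes correlated between some comparisons and varied with GC content. The simulation therefore checks the code and cannot show how well either step is calibrated for these data. Python 3.11.15, numpy 2.4.6, pandas 2.3.3 and scipy 1.17.1 were used.

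Named genes are all members called, the 5 with the highest and the 5 with the lowest Wald statistic per comparison, the member with the highest level of each class, and those with 1 sign in all 4 tables and an unadjusted p under 0.05 in at least 2; results of a few genes that these rules name are not reported here. The members, classes and marker lists were chosen with earlier results of these data known.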

Additional observations from a re-analysis of the deposited data

How the results depend on the processing

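No call of a member survived every alternative. No paired analysis was possible because the library columns match no sample label; for the same reason count fits, other normalizations and leaving out libraries were not run. In females on HCD 3 members were called, 5 at an adjusted p under 0.10, 1 with the Wald statistic over its robust spread, and 0 with the trend in length and GC content removed. A trend in exon-union length alone, chosen after seeing the data, left 1 there and 0 in females on RD. In females on RD 2 were called, 1 with a mean of 100 or more, 1 with no filter, 1 with centred fold changes and 0 with the length and GC trend removed. Males on HCD had 0, and 1 (Scn3a) at an adjusted p under 0.10. The exon-union trend moved the share of positive members to 40.9% in males on HCD and 55.3% in females on HCD. In males on HCD the length and GC trend moved the class median of sodium alpha subunits to -0.32 and of high-voltage calcium pores to -0.21; the exon-union trend gave -0.17 for the high-voltage pores and 0.12 for T-type pores. Turning the sign of the tables of mice weaned onto RD gave 4 members whose fold changes differed between comparisons, against 0. The same turn, applied after seeing the data to the share of members with 1 sign throughout, gave 2.06% positive and 12.4% negative, against 8.25% and 10.3% as read. No value reversed its direction among those called. Of 317 values of named genes under an alternative, 299 kept their side of the threshold, 13 lost a call and 5 gained one. Most of these values belong to genes without a call, which had no call to lose, so the 299 do not measure how stable the calls were.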
